A study of Mus musculus with 36 samples.

Results

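The genes described are the mouse Fc gamma receptor genes Fcgr1, Fcgr3, Fcgr4 and Fcgr2b, the gene of their shared signalling chain Fcer1g, and the neonatal Fc receptor gene Fcgrt. They were chosen by symbol, 6 of 49568 gene symbols in the count table, after Fcgr1 had been seen to be low in 129X1 mice. All 6 passed the filter on low counts, with 18628 genes tested in all. The libraries came from ligated left carotid arteries collected 14 days after ligation of the vessel, an operation that stops flow and drives remodelling of the wall. Mice were C57BL/6 (C57BL/6J in the design text, B6 here) or 129X1/SvJ (129X1). They were given vehicle at 2 mL/kg/day, valsartan (Val) at 27 mg/kg/day, or sacubitril/valsartan (Sac/val) at 60 mg/kg/day. Valsartan blocks the angiotensin II type 1 receptor, and sacubitril is a prodrug of an inhibitor of the peptidase neprilysin. The prophylactic regimen ran for 16 days from 2 days before ligation, and the therapeutic regimen ran for 7 days from day 7 after it. Strain, treatment and regimen together gave 12 groups of 3 libraries, 36 in all. All groups carried the ligation, no unligated artery was analysed here, and age is not given in the sources used here.

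Fc gamma receptors bind the constant part of immunoglobulin G on target cells and immune complexes, and they link antibody to phagocytosis and cytokine release. The activating receptors in mice, encoded by Fcgr1, Fcgr3 and Fcgr4, reach the surface with the gamma chain encoded by Fcer1g, whose ITAM motif recruits the kinase Syk. Fcgr2b encodes the inhibitory receptor, whose ITIM motif recruits the phosphatase SHIP1. Fcgrt encodes the neonatal Fc receptor, which pairs with beta 2-microglobulin and returns internalised immunoglobulin G and albumin from endosomes to the blood, in endothelium as well as in macrophages. Macrophages accumulate in the ligated carotid wall, and interferon gamma is a classical inducer of Fcgr1.

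Libraries held 18.96 M to 28.97 M counts, with a median of 22.78 M. Levels are in CPM, each gene's counts over the library total scaled to a common size, after TMM correction. The 16 macrophage markers, among them Cd68, Adgre1 and Csf1r, were all detected and none was at 0 in every library. Tissue next to the artery was also present in varying amounts. The recombination gene Rag1, a marker of developing lymphocytes, reached 10 CPM or more in 16 of the 36, 4 of 18 from B6 and 12 of 18 from 129X1. Its range was 0.041 to 1591 CPM, that of the thyroid gene Tg 0.172 to 39846 CPM, that of the skeletal muscle gene Acta1 2.28 to 10505 CPM and that of the brown fat gene Ucp1 69.5 to 3920 CPM. Since whole pieces of tissue were sequenced, fewer cells of a type and less RNA per cell cannot be told apart.

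Fcgr1 encodes the high-affinity receptor for immunoglobulin G. The gene lies on the minus strand at chr3:96282909-96293969 (GRCm38, GENCODE M21), away from the other receptor genes, and no other annotated gene overlaps it. Fcgr2b (chr1:170958617-170976547), Fcgr4 (chr1:171018920-171029761), Fcgr3 (chr1:171051174-171064935) and Fcer1g (chr1:171229572-171234365) share a stretch of chromosome 1, with Fcgr4 on the plus strand and the others on the minus strand. Fcgrt lies at chr7:45092990-45103851. The bases before the RefSeq start site are shown for Fcgr1 and Fcgr4, the receptors with the largest strain differences in log2 units below, and for Fcgr3, whose strain difference did not pass the test.
Fcgr1: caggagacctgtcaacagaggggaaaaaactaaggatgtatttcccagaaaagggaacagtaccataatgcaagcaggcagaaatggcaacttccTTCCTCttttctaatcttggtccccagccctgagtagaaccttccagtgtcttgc
Fcgr4: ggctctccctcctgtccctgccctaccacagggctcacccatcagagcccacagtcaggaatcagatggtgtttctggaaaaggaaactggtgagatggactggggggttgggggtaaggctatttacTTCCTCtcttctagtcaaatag
Fcgr3: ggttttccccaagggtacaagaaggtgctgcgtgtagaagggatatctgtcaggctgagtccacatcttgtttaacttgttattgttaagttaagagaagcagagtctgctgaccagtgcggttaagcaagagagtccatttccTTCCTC
These are 150 bases each, 5′ to 3′ on the strand of the gene, at chr3:96293970-96294119 for Fcgr1, chr1:171018776-171018925 for Fcgr4 and chr1:171059404-171059553 for Fcgr3 (RefSeq, GRCm38.p6). RefSeq lists 2 start sites for Fcgr3, and the first is shown. Capitals mark matches to GAGGAA, a core bound by the myeloid factor PU.1, searched on both strands over 250 bases before each start. Fcgr1 held TTCCTC, which is GAGGAA on the other strand, from 55 to 50 bases before its start. Fcgr4 held it from 22 to 17 and Fcgr3 from 6 to 1 bases before the start shown, and no match lay before the starts of Fcgr2b, Fcer1g and Fcgrt. Only these exact letters were searched, so other forms of a PU.1 site were not looked for in any of the genes. Of 32851 RefSeq promoters of this length, 23.3% held GAGGAA. A match describes letters of the reference genome, which is of B6 origin, and the 129X1 sequence was not examined.

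The strain difference in vehicle-treated arteries is the contrast the genes were selected on, so it is given as a description with no test. Fcgr1 in the vehicle libraries of B6 was 14.2, 18.1 and 22.3 CPM under the prophylactic regimen and 50.3, 12.9 and 12.2 CPM under the therapeutic one. In 129X1 it was 2.69, 4.46 and 3.20 CPM and then 3.38, 5.596 and 2.70 CPM. The strains did not overlap, and 1 B6 library at 50.3 CPM stood above the other 5. The mean was 21.7 ± 14.5 CPM in B6 and 3.67 ± 1.14 CPM in 129X1 (SD, n = 6 each), and the fitted log2 difference, 129X1 minus B6, was -2.54 ± 0.44 (SE). For the other genes in the same libraries the fitted log2 differences were -1.97 for Fcgr4, -1.27 for Fcgr2b, -1.11 for Fcer1g, -0.78 for Fcgr3 and 0.08 for Fcgrt.

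The drug-treated libraries share no library with that contrast. The genes were chosen with earlier results of these data known, so the p-values below are not shown to be independent of that choice. Fcgr1, Fcgr4, Fcgr2b and Fcer1g were lower in 129X1 than in B6, while Fcgr3 and Fcgrt did not pass. Fcgr1 was 4.00 ± 1.31 CPM in 129X1 and 20.04 ± 9.94 CPM in B6 (SD, n = 12 each), 5.01-fold higher in B6. Fcgr4 was 3.36-fold, Fcgr2b 2.13-fold and Fcer1g 1.98-fold higher in B6.

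The Fcgr1 values of the Val libraries of B6 were 7.16, 23.7 and 27.4 CPM under the prophylactic regimen and 5.04, 29.05 and 34.9 CPM under the therapeutic one. In 129X1 given Val they were 5.84, 2.10 and 2.60 CPM, then 2.502, 4.77 and 4.29 CPM. A single 129X1 library, at 5.84 CPM, therefore reached above the lowest B6 library of the same drug, at 5.04 CPM. With Sac/val, B6 had 19.8, 16.3 and 15.4 CPM under the prophylactic regimen and 7.63, 22.9 and 31.3 CPM under the therapeutic one. The 129X1 libraries given Sac/val had 3.52, 4.82 and 6.42 CPM, then 3.97, 3.60 and 3.58 CPM, all below every B6 library given that drug. Over both drugs 10 of 12 libraries from 129X1 were below all those from B6, and 11 of 12 from B6 were above all those from 129X1. Over all 3 treatments 17 of 18 B6 libraries were above every 129X1 library, a count that includes the vehicle libraries the genes were chosen on.

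**Figure D1:**
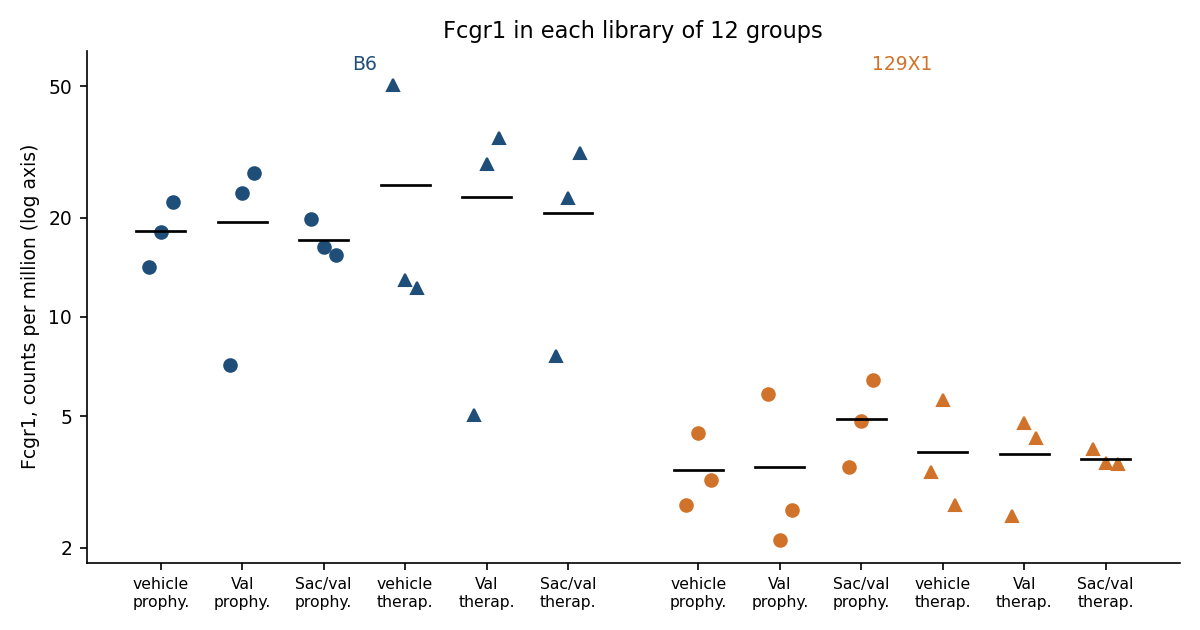
Fcgr1 level in CPM (log axis) in each of 36 libraries, by strain, treatment and regimen, with circles for prophylactic and triangles for therapeutic libraries and bars for the group means of 3. The 129X1 libraries lie between 2.10 and 6.42 CPM, and 17 of 18 B6 libraries lie above all of them. The vehicle libraries among these belong to the contrast the genes were chosen from.

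In the edgeR quasi-likelihood test over both drugs, Fcgr1 had a log2 difference, 129X1 minus B6, of -2.33 ± 0.31 (SE), with a 95% interval of -2.97 to -1.69 and an adjusted p of 2.66e-06. Fcgr4, whose receptor binds the immunoglobulin G2 subclasses with intermediate affinity, had -1.88 ± 0.37 (adjusted p = 0.000483). The inhibitory receptor gene Fcgr2b had -1.13 ± 0.32 (adjusted p = 0.0107), and the gamma chain gene Fcer1g had -1.05 ± 0.31 (adjusted p = 0.0148). Fcgr3, the low-affinity activating receptor, had -0.71 ± 0.32, which missed the threshold (adjusted p = 0.118, interval -1.37 to -0.05). For Fcgrt the value was 0.06 ± 0.15 (adjusted p = 0.86, interval -0.26 to 0.37). Thus 4 of 6 genes passed, all lower in 129X1, where 21.5% of all genes tested passed, 2013 higher and 1985 lower. The median log2 difference was -1.09 over the 6 genes and -0.02 over all genes.

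The spread behind these differences was wide in B6. Fcgr4 ran from 3.12 CPM (median 14.996) to 21.6 CPM in drug-treated B6 and from 1.31 CPM (median 3.86) to 9.15 CPM in 129X1. All 12 libraries of 129X1 were below the B6 median for Fcgr4, and 9 of 12 B6 libraries were above all those of 129X1. Fcgr2b ran from 18.5 CPM (median 154) to 231 CPM in B6 and from 27.7 CPM (median 55.2) to 103 CPM in 129X1. Its lowest value of all was in B6, and 8 of 12 B6 libraries exceeded every 129X1 library. Fcer1g ran from 21.3 CPM (median 113) to 154 CPM in B6 and from 19.02 CPM (median 48.2) to 83.7 CPM in 129X1. For Fcgr3 the range was 20.1 to 157 CPM (median 125) in B6 and 24.2 to 125 CPM (median 65.8) in 129X1, so that no 129X1 library lay below all B6 libraries. Fcgrt overlapped almost completely, at 96.9 to 293 CPM (median 252) in B6 and 183 to 289 CPM (median 247) in 129X1.

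**Figure D2:**
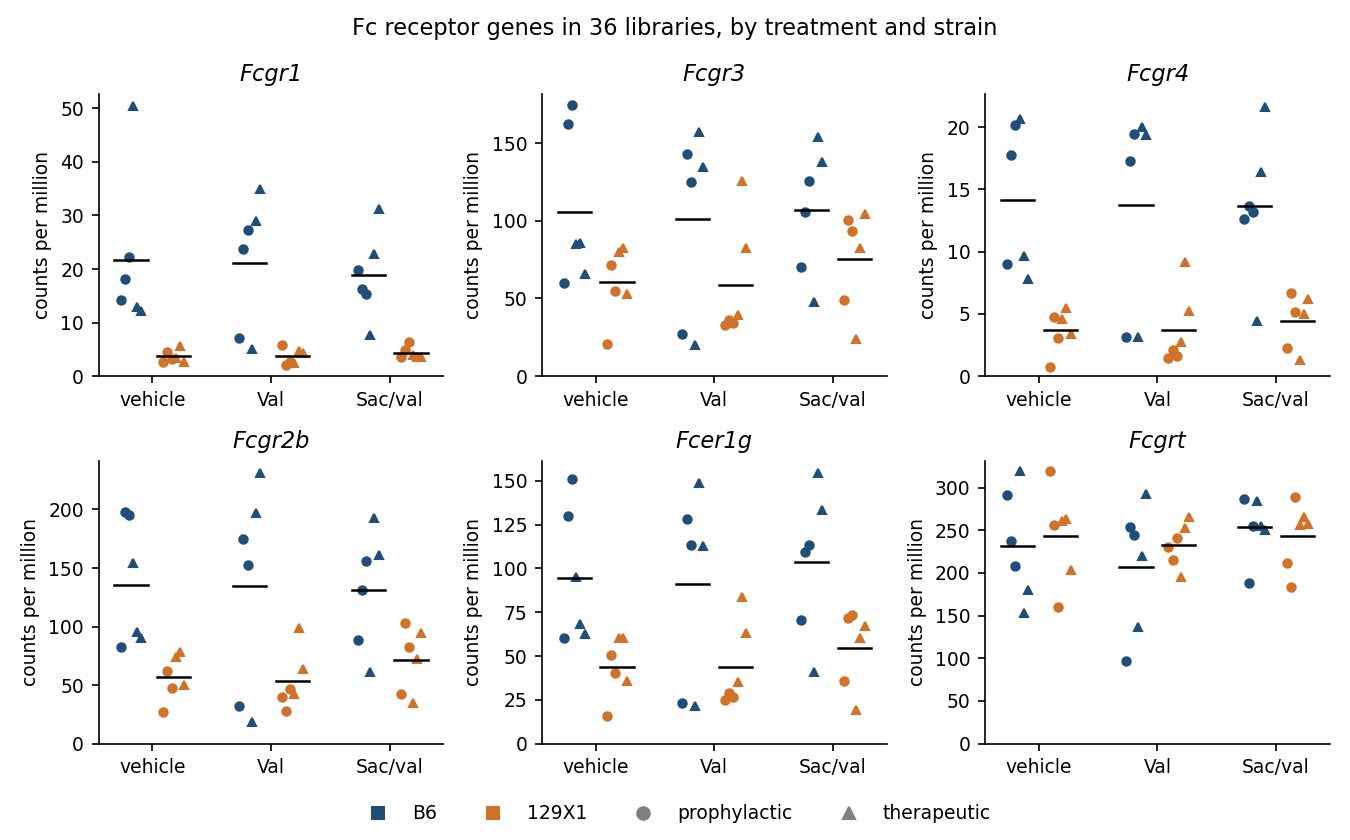
Level of each of the 6 genes in CPM by treatment, with B6 in blue and 129X1 in orange, circles for prophylactic and triangles for therapeutic libraries and bars for the means of 6. The strains separate for Fcgr1 apart from 1 pair of libraries under Val, and they overlap widely for Fcgr3 and Fcgrt.

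Each drug alone, with 6 libraries per strain, gave less precision. Under Val, Fcgr1 had a log2 difference of -2.52 ± 0.44 (adjusted p = 0.00024), Fcgr4 of -2.13 ± 0.52 (adjusted p = 0.0059) and Fcgr2b of -1.39 ± 0.45 (adjusted p = 0.0297) by edgeR. These 3 of 6 genes passed, against 20.9% of all genes. Fcer1g, at -1.18, was just above the threshold (adjusted p = 0.0554), Fcgr3 was -0.92 (adjusted p = 0.143) and Fcgrt 0.17. Under Sac/val, Fcgr1 alone passed, at -2.13 ± 0.44 (adjusted p = 0.00177), 1 of 6 genes against 6.26% of all. Fcgr4 was -1.62 ± 0.51 (adjusted p = 0.0573), Fcer1g -0.93 (adjusted p = 0.232), Fcgr2b -0.88 (adjusted p = 0.273), Fcgr3 -0.50 (adjusted p = 0.547) and Fcgrt -0.06. That fewer genes passed under Sac/val does not show a smaller strain difference, which was tested as an interaction below.

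**Figure D3:**
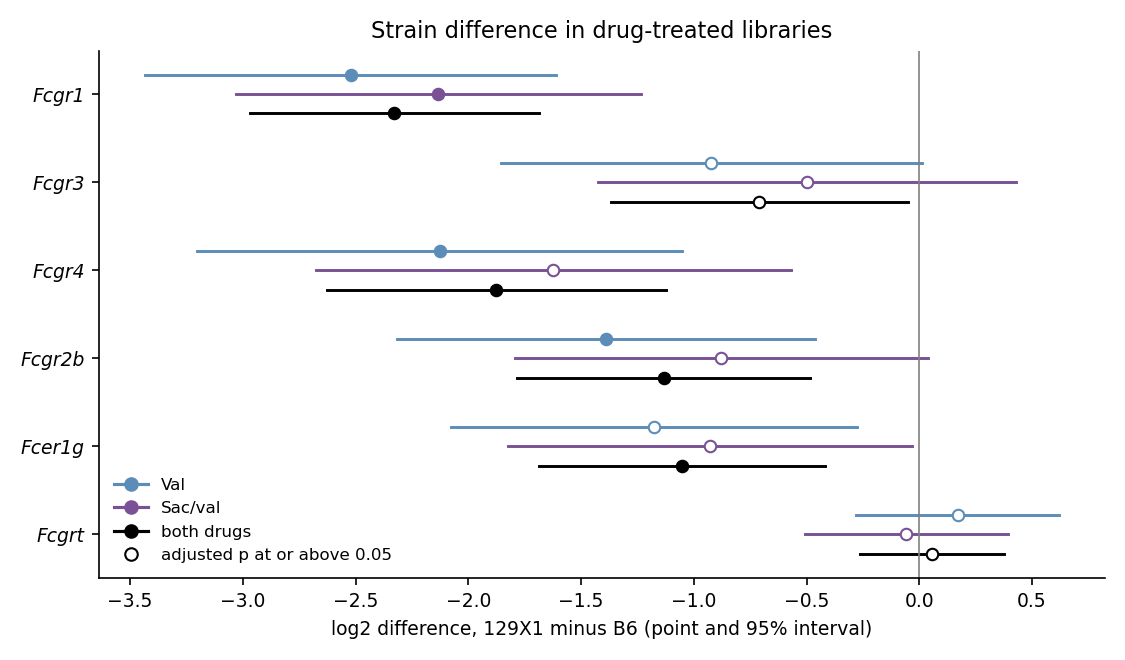
Fitted log2 difference, 129X1 minus B6, for each gene under Val, under Sac/val and over both drugs, as points with 95% intervals, filled where the adjusted p was below 0.05. Fcgr1 is filled in all 3, at -2.52, -2.13 and -2.33, and Fcgrt lies at 0.17, -0.06 and 0.06.

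As a description, the order of the 12 group means followed strain for 4 of the genes. The vehicle groups among the 12 belong to the contrast the genes were chosen from. How many of all genes order in this way was not counted. For Fcgr1 the 6 B6 groups came first, from 25.2 CPM in the vehicle therapeutic group to 17.2 CPM in the Sac/val prophylactic group. The 6 groups of 129X1 followed, from 4.92 CPM in the Sac/val prophylactic group to 3.45 CPM in the vehicle prophylactic group. Among the 11 pairs of neighbours in that order, only the step between the strains exceeded the larger SD of the pair. Fcgr4, from 15.7 to 1.73 CPM, and Fcgr2b, from 158 to 38.1 CPM, had the same single step between strains. That step barely exceeded the larger SD, at 6.96 beside 6.95 CPM for Fcgr4 and 37.4 beside 35.6 CPM for Fcgr2b. The B6 groups also held the first 6 places for Fcer1g (114 to 26.8 CPM), but there and for Fcgr3 (132 to 34.5 CPM) no neighbours differed beyond their spread. For Fcgrt the highest group mean was 1.33-fold the lowest.

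Levels can be set against each other per kilobase of merged exon. Over the 18 B6 libraries Fcer1g was at 110 ± 49.3 and Fcgr3 at 60.2 ± 27.8 CPM per kb, then Fcgr2b at 23.1 ± 10.7, Fcgr4 at 11.0 ± 5.03 and Fcgr1 at 7.95 ± 4.35 CPM per kb (SD). In 129X1 the order of these was the same, with Fcer1g at 54.2 ± 23.7, Fcgr3 at 37.4 ± 17.7, Fcgr2b at 10.4 ± 4.18, Fcgr4 at 3.14 ± 1.78 and Fcgr1 at 1.503 ± 0.477 CPM per kb. Fcgrt was at 110 ± 28.6 CPM per kb in B6 and 114 ± 18.8 CPM per kb in 129X1. As a share of the 4 Fc gamma receptor transcripts per length, Fcgr1 held 8.11 ± 2.94% in B6 and 3.34 ± 1.69% in 129X1, and Fcgr4 10.8 ± 1.85% and 5.65 ± 1.09%. Fcgr3 held 58.8 ± 4.66% in B6 and 70.3 ± 3.61% in 129X1, and Fcgr2b 22.3 ± 2.16% and 20.7 ± 3.11%. The summed activating receptors over the inhibitory one came to 3.53 ± 0.479 in B6 and 3.93 ± 0.676 in 129X1, with overlapping ranges of 2.67 to 5.02 and 2.74 to 4.90. The 18 libraries per strain include the vehicle libraries the genes were chosen on. In the 12 drug-treated ones Fcgr1 held 7.99 ± 1.84% in B6 and 3.42 ± 1.91% in 129X1. The ratio there was 3.59 ± 0.557 in B6 and 3.94 ± 0.759 in 129X1. These are descriptions, and they depend on the length used: with the longest transcript the ratio over 18 libraries was 2.63 in B6 and 3.02 in 129X1.

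Ratios within a library compare 2 genes in the same piece of tissue. In the drug-treated libraries the log2 ratio of Fcgr4 to Fcgr3 CPM was -4.13 ± 0.236 in 129X1 and -2.94 ± 0.291 in B6 (SD, n = 12 each). All 12 libraries of 129X1 lay below all 12 of B6. For Fcgr1 over Fcgr3 it was -3.94 ± 0.744 in 129X1 and -2.35 ± 0.394 in B6, and 10 of 12 libraries of 129X1 were below all of B6. For Fcgr2b over Fcgr3 it was -0.04 ± 0.314 and 0.31 ± 0.194, with 7 of 12 below all of B6. For Fcer1g over Fcgr3 it was -0.41 ± 0.122 and -0.09 ± 0.115, with 11 of 12 below. Of the genes in these ratios Fcgr3 had the smallest fitted strain difference, at -0.71. A lower mean ratio to it in 129X1 therefore follows for all 4 genes from the choice of Fcgr3. For Fcgr1 over Fcer1g the log2 ratio was -3.53 ± 0.694 in 129X1 and -2.25 ± 0.413 in B6, with 10 of 12 below. How many pairs of genes separate in this way was not counted.

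Macrophage markers moved with strain in the same direction. Of the 16 markers, 0 were higher and 8 lower in drug-treated 129X1 by edgeR, where 21.5% of all genes passed. Among the 8 were the complement genes C1qc (-1.06, adjusted p = 0.0016) and C1qa (-1.04, adjusted p = 0.00239), Aif1 (-1.36, adjusted p = 0.000213) and Ms4a7 (-1.42, adjusted p = 0.000883). Under Val 0 were higher and 7 lower (median -0.90), where 20.9% of all genes passed. Under Sac/val 0 of the 16 passed (median -0.70), where 6.26% of all genes did. Over both drugs the summed level of the 16 ran from 957 to 7271 CPM in B6 and from 1231 to 5102 CPM in 129X1. A macrophage score, the mean log2 CPM of the 16 markers, was 6.01 ± 0.545 in 129X1 and 6.71 ± 0.842 in B6, a difference of -0.70.

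Against that score Fcgr1 was still lower in 129X1. Fcgr1 minus the score was -4.05 ± 0.467 in 129X1 and -2.60 ± 0.309 in B6, a difference of -1.45, and 11 of 12 libraries of 129X1 lay below all of B6. For Fcgr4 the difference was -1.03, with 9 of 12 below. Fcgr2b differed by -0.22, Fcer1g by -0.19, Fcgr3 by 0.12 and Fcgrt by 0.80. With the score as a covariate in the edgeR fit, Fcgr1 had -1.49 ± 0.21 (adjusted p = 1.08e-05) and Fcgr4 -0.83 ± 0.17 (adjusted p = 0.00121), where 15.4% of all genes passed. In that fit Fcgr2b was -0.05 ± 0.08 (adjusted p = 0.723), Fcer1g -0.07 ± 0.11 (adjusted p = 0.71), Fcgr3 0.30 ± 0.11 (adjusted p = 0.063) and Fcgrt 0.25 ± 0.16 (adjusted p = 0.324). The calls for Fcgr2b and Fcer1g were lost there. With scores for skeletal muscle, fat and Schwann cells as covariates only Fcgr1 passed, at -1.66 (adjusted p = 0.003), with Fcgr4 at -1.10 (adjusted p = 0.117).

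**Figure D4:**
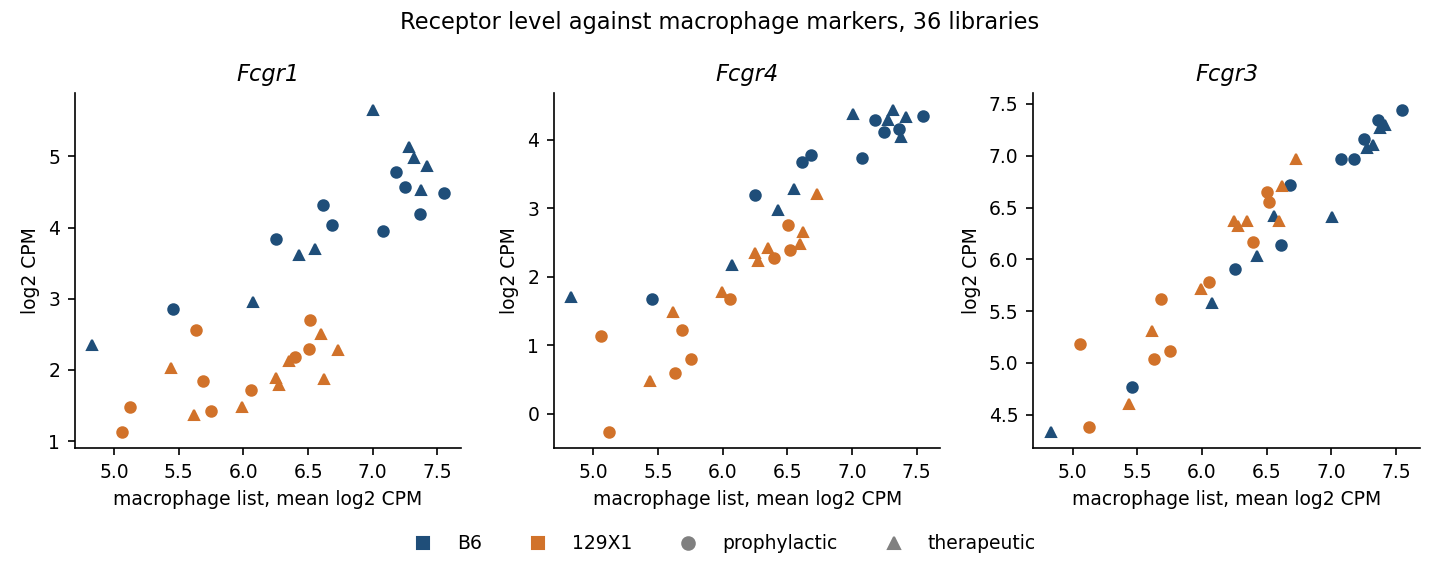
Log2 CPM of Fcgr1, Fcgr4 and Fcgr3 against the macrophage score (mean log2 CPM of 16 markers) in 36 libraries, with B6 in blue, 129X1 in orange, circles for prophylactic and triangles for therapeutic libraries. At a like score Fcgr1 is lower in 129X1, with a drug-treated mean difference of -1.45 after subtracting the score, while the strains share 1 band for Fcgr3, with 0.12.

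Markers of other cells that can carry Fc receptors were counted in the same way, beside the 21.5% called over all genes. Of 7 neutrophil markers tested 6 were lower in 129X1, among them S100a8 (-2.87, adjusted p = 0.00116) and S100a9 (-2.83, adjusted p = 0.00224), which encode calprotectin, and their sum ran from 16.0 to 458 CPM in B6 and from 9.16 to 93.1 CPM in 129X1. Of 8 monocyte markers 4 were lower, of 7 dendritic cell markers 3, of 6 NK cell markers 2 and of 7 mast cell markers 1, with none higher. The list medians were -2.28 for neutrophils, -0.91 for monocytes, -0.59 for dendritic cells, -0.16 for NK cells and -0.11 for mast cells, beside -0.02 over all genes. The NK and mast cell counts and medians are too close to those of all genes to be read as a difference in these lists. In these lists no marker was at 0 in all 36 libraries. Of 8 B cell markers 3 were higher, and of 10 thymocyte and T cell markers 0 passed, with a median of 1.88 for each list. The B cell sum ran from 3.46 to 27.1 CPM in B6 and from 1.88 to 158 CPM in 129X1, and the T cell sum from 8.71 to 7206 CPM and from 4.88 to 2680 CPM. The T cell median differed by drug, at -2.13 under Val with 0 passing and 6.08 under Sac/val with 2 higher and 0 lower. Under Sac/val the T cell sum ran from 8.71 to 56.1 CPM in B6 and from 11.5 to 2334 CPM in 129X1. Of 9 adipocyte markers 3 were higher, with sums of 3458 to 15573 CPM in B6 and 7838 to 15895 CPM in 129X1. Of 8 Schwann cell markers 4 were lower, with sums of 575 to 2637 CPM and 831 to 1967 CPM, and of 7 endothelial markers 1 was lower. None of 7 smooth muscle, 8 skeletal muscle and 5 thyroid markers passed. The part of neutrophils, monocytes and NK cells in the receptor differences was not tested. Leaving out the 16 libraries with 10 CPM or more of Rag1 gave edgeR log2 differences of -2.21 for Fcgr1 and -1.97 for Fcgr4. Fcgr2b was then -1.15 and Fcer1g -1.10, over the 3 of 4 combinations of drug and regimen that kept a library of each strain. Drug-treated 129X1 kept 2 libraries under prophylactic Val, 0 under therapeutic Val and 1 in each Sac/val group, too few for a call. With T cell and B cell scores as covariates the calls for Fcgr2b and Fcer1g were lost.

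The same pair of B6 libraries was lowest in that strain for Fcgr1, Fcgr3, Fcgr4, Fcgr2b and Fcer1g. Val prophylactic replicate 1 and Val therapeutic replicate 1 had 27.1 and 20.1 CPM of Fcgr3, with Rag1 at 1591 and 869 CPM. Their macrophage scores, 5.46 and 4.83, were the lowest in B6. Any part of neighbouring tissue in these low values was not tested. Leaving out a lowest B6 library raises the B6 mean, so a larger strain difference follows from that choice. Leaving out the first gave Fcgr3 a log2 difference of -0.82 (adjusted p = 0.0478), and leaving out the second -0.83 (adjusted p = 0.0341), so that 5 genes then passed. The other 4 calls stood whichever 1 library was left out, with Fcgr1 between -2.47 and -2.22.

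The genes that act with the receptors were taken from fixed lists, and counts are those that passed in the edgeR strain test under drug, where 21.5% of all genes passed with a median of -0.02. Lists with 1 of 5 or 1 of 10 genes called are at or below that share. Among 12 partners of the gamma chain and related ITAM receptors 0 were higher and 4 lower, with a median of -0.86. These were Pira2 (-2.60, adjusted p = 0.000542) and Pirb (-0.96, adjusted p = 0.0252) of the paired immunoglobulin-like receptors, the beta-glucan receptor gene Clec7a (-1.43, adjusted p = 0.00934) and the adaptor gene Tyrobp (-0.96, adjusted p = 0.0408). Pira2 was low in both strains, with drug-treated means of 0.518 CPM in 129X1 and 2.72 CPM in B6. Of 22 genes that signal after Fc gamma receptors 0 were higher and 7 lower, with a median of -0.55. Among them were Card9, an adaptor (-0.80), Prkcd, a protein kinase C (-0.65), and Lyn, a Src-family kinase (-0.73). Under Val 10 of the 22 were lower (median -1.09), where 20.9% of all genes passed. Under Sac/val 0 of the 22 passed (median -0.27), where 6.26% of all genes did. Their summed level averaged 1998 CPM in B6 and 1093 CPM in 129X1 under Val, and 1363 and 1374 CPM under Sac/val. In B6 given Val the sum ran from 1548 to 3264 CPM. The T cell sum in B6 ran from 10.7 to 7206 CPM under Val and from 8.71 to 56.1 CPM under Sac/val. Any part of neighbouring tissue in these sums was not tested, nor was a change of this list as a set between drugs. Of 5 phagocyte oxidase genes only Cyba passed, at -0.68 (adjusted p = 0.04998). Irf5 (-0.78) was the only one of 10 myeloid transcription factor genes to pass.

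Among 16 tested genes of interferon gamma signalling and its early targets 6 were lower and 0 higher. Gbp3 (-1.22, adjusted p = 3.46e-05), Gbp5 (-0.87, adjusted p = 4.52e-05) and Gbp2 (-0.77, adjusted p = 8.36e-05) encode guanylate-binding proteins, and Irf1 (-0.40, adjusted p = 0.000952) encodes an early transcription factor of the response. The median of the list was -0.36. Its summed level was 683 ± 83.3 CPM in 129X1 and 897 ± 164 CPM in B6. Under Val the sum was 655 ± 96.6 CPM in 129X1 and 995 ± 158 CPM in B6 (list median -0.65). Under Sac/val it was 712 ± 63.1 and 798 ± 106 CPM (list median -0.12). The B6 sums under Val ran from 881 to 1307 CPM, with a median of 939 CPM. Whether the strain difference of this list changed between drugs was not tested as a set. Over all genes 0 passed by edgeR in the test of Sac/val minus Val between strains.

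Of 12 other Fc receptor genes tested 1 was higher and 3 lower. Fcer2a, the low-affinity immunoglobulin E receptor of B cells, was higher in 129X1 (2.71, adjusted p = 0.0107), as were 3 B cell markers. Lower were Fcrls (-1.31, adjusted p = 0.00515), a scavenger-type Fc receptor-like gene, Fcer1a (-1.39, adjusted p = 0.00643), the immunoglobulin E-binding chain that shares the gamma chain, and Trim21 (-0.51, adjusted p = 0.0155), a cytosolic antibody receptor. Fcer1a was low in both strains, with drug-treated means of 0.434 CPM in 129X1 and 1.17 CPM in B6. Of 9 genes for immunoglobulin heavy constant regions and the joining chain 3 were higher in 129X1, Ighg1 (6.59, adjusted p = 0.00199), Ighg3 (3.87, adjusted p = 0.0356) and Ighd (2.01, adjusted p = 0.0491). In B6 the drug-treated means of Ighg1 and Ighg3 were only 0.319 and 0.251 CPM, beside 15.3 and 3.90 CPM in 129X1. The list median was -1.26 under Val (1 higher, 1 lower) and 2.65 under Sac/val (2 higher, 0 lower). Of all genes 20.9% and 6.26% passed there. Under Val, Igha was lower by edgeR (-2.83, adjusted p = 0.0454). The summed list averaged 244 ± 208 CPM in 129X1 and 262 ± 274 CPM in B6 over both drugs. Immunoglobulin constant genes differ in sequence between mouse strains, and reads of both strains were aligned to 1 reference. B2m, which encodes the beta 2-microglobulin that pairs with the neonatal receptor, was lower (-0.66, adjusted p = 0.000212) while Fcgrt itself did not pass. The peptide-loading genes Tapbp (-0.51, adjusted p = 0.000443) and Tap1 (-0.52, adjusted p = 0.0475), listed with B2m but not partners of the receptor, were lower too.

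Neither drug gave a called difference in any of the 6 genes. The comparisons with vehicle use the same vehicle libraries, which also belong to the contrast the genes were chosen from. Fcgr1 averaged 21.7 ± 14.5 CPM with vehicle, 21.2 ± 12.3 with Val and 18.9 ± 7.95 with Sac/val in B6, and 3.67 ± 1.14, 3.68 ± 1.503 and 4.32 ± 1.14 CPM in 129X1 (SD, n = 6 each). The treatments overlapped in both strains.

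Averaged over strain and regimen, the fitted log2 difference of Val minus vehicle was -0.01 for Fcgr1 (interval -0.62 to 0.61), -0.12 for Fcgr4 (interval -0.84 to 0.61), -0.08 for Fcgr3, -0.06 for both Fcgr2b and Fcer1g, and -0.11 for Fcgrt (interval -0.43 to 0.21). For Sac/val minus vehicle it was 0.02 for Fcgr1 (interval -0.59 to 0.63), 0.13 for Fcgr4, 0.20 for Fcgr3, 0.17 for Fcgr2b, 0.25 for Fcer1g (interval -0.38 to 0.88) and 0.06 for Fcgrt (interval -0.25 to 0.38). Sac/val minus Val, which uses no vehicle library, gave 0.02 for Fcgr1 (interval -0.59 to 0.63), 0.24 for Fcgr4, 0.29 for Fcgr3, 0.23 for Fcgr2b, 0.31 for Fcer1g (interval -0.32 to 0.94) and 0.17 for Fcgrt (interval -0.14 to 0.49). The intervals leave room for changes of up to about the size of their bounds in either direction, so they do not show that the drugs left these genes alone. By edgeR, 0 of 6 genes and 0% of all genes passed in each of these 3 comparisons. At an unadjusted p below 0.05 there were 453, 293 and 491 of 18628 genes and 0 of the 6, and the DESeq2 Wald test called 2, 10 and 17 genes and 0 of the 6.

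Within a strain the direction was not shared by all genes. Sac/val minus vehicle was -0.19 for Fcgr1 in B6 and 0.22 in 129X1, and the test of that difference between strains gave 0.41 ± 0.60 (adjusted p = 0.966). Sac/val minus Val was -0.17 and 0.22 for Fcgr1, with a difference between strains of 0.39 ± 0.60 (adjusted p = 0.732), which is also the test of whether the strain difference was the same under both drugs. For Fcgr4 that difference was 0.50 ± 0.71 (adjusted p = 0.704), for Fcgr2b 0.51 ± 0.63 (adjusted p = 0.653), for Fcgr3 0.43 ± 0.64 (adjusted p = 0.725) and for Fcer1g 0.25 ± 0.61 (adjusted p = 0.844). Val minus vehicle was -0.02 for Fcgr1 in B6 and 0.01 in 129X1. In these comparisons within a strain and between strains 0 of 6 genes and 0% of all genes passed, and none of the 6 had an unadjusted p below 0.05. Over all genes 4346 had one for Sac/val minus Val in B6 and 3565 for its difference between strains, and 318 to 960 in each of the others. DESeq2 was not run for these.

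Regimen gave no called difference either. Fcgr1 averaged 18.3 ± 5.95 CPM under the prophylactic and 22.9 ± 14.9 CPM under the therapeutic regimen in B6, and 3.96 ± 1.51 and 3.82 ± 0.9745 CPM in 129X1 (SD, n = 9 each). Therapeutic minus prophylactic was 0.15 ± 0.24 for Fcgr1 (interval -0.35 to 0.65), 0.35 ± 0.29 for Fcgr4 (interval -0.25 to 0.95), 0.20 for Fcgr2b, 0.18 for both Fcgr3 and Fcer1g, and 0.05 for Fcgrt. By edgeR 0 of 6 genes and 0% of all genes passed, 599 genes and 0 of the 6 had an unadjusted p below 0.05, and DESeq2 called 21 genes and 0 of the 6.

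The lowest group means of Fcgr3 (34.5 CPM), Fcgr4 (1.73 CPM), Fcgr2b (38.1 CPM) and Fcer1g (26.8 CPM) were all in 129X1 given Val prophylactically, whose 3 libraries had macrophage scores of 5.06 to 5.75. The change of the Val effect with regimen, as therapeutic minus prophylactic, was 0.77 ± 0.64 for Fcgr3, 0.74 ± 0.71 for Fcgr4, 0.66 ± 0.61 for Fcer1g, 0.54 ± 0.63 for Fcgr2b and -0.13 ± 0.60 for Fcgr1. None passed (adjusted p = 1 after rounding for each), nor did any other interaction with regimen, where 0% of all genes passed and 156 to 329 had an unadjusted p below 0.05. The strain difference under drug changed with regimen by -0.39 ± 0.60 for Fcgr1 and 0.68 ± 0.71 for Fcgr4, with 0% of all genes called and 234 at an unadjusted p below 0.05. No gene of the fixed lists passed in any drug, regimen or interaction comparison either.

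**Figure D5:**
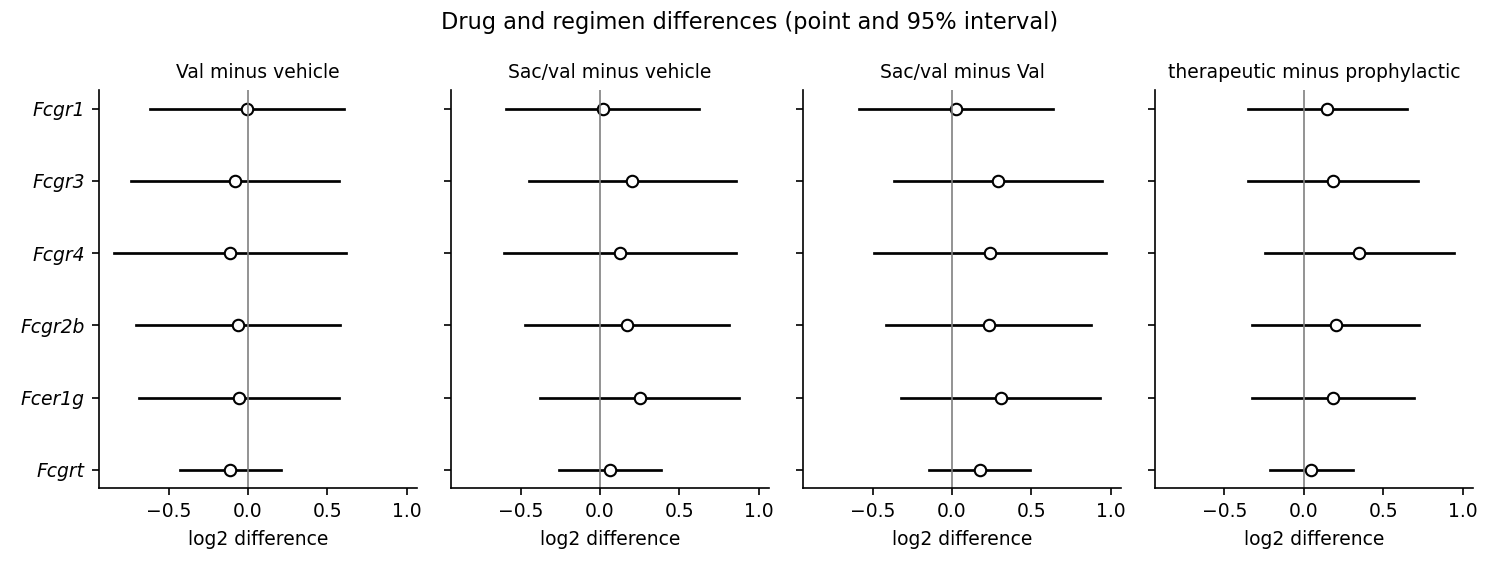
Fitted log2 differences of the 6 genes for 3 drug comparisons and for regimen, each averaged over the other factors, as points with 95% intervals. Every interval includes 0, and the points lie between -0.12 and 0.35.

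Correlations between the genes across the 36 libraries were high, apart from those of Fcgrt. They are descriptions over libraries that share strain, depth and tissue content. Pearson's r of log2 CPM was 0.98 between Fcer1g and Fcgr3, 0.96 between Fcer1g and Fcgr2b, 0.95 between Fcer1g and Fcgr4, 0.95 between Fcgr2b and Fcgr3, 0.92 between Fcgr2b and Fcgr4 and 0.88 between Fcgr3 and Fcgr4. With Fcgr1 it was 0.64 for Fcgr3, 0.77 for Fcer1g, 0.81 for Fcgr2b and 0.87 for Fcgr4. Within the 18 B6 libraries r with Fcgr1 was 0.79 to 0.94 for these 4 genes (0.94 for Fcgr4, beside 0.93 between Fcgr3 and Fcgr4), and within the 18 of 129X1 it was 0.44 to 0.59. In 129X1 Fcgr1 spanned 2.10 to 6.42 CPM, from 47 to 145 counts per library. Fcgrt had an r of 0.16 to 0.33 with the other 5, 0.55 to 0.65 within B6 and -0.05 to 0.27 within 129X1.

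Among 12493 tested genes with a mean of at least 5 CPM, those most like Fcgr1 across the 36 libraries were Ly86 (r = 0.96), which encodes MD-1, the partner of the toll-like receptor homologue RP105, then Glb1 (0.94), the lysosomal beta-galactosidase gene, and Ms4a14 (0.94). These values include the strain difference. Within B6 alone r was 0.96 for Ly86, 0.80 for Glb1 and 0.90 for Ms4a14, and within 129X1 alone 0.79, 0.69 and 0.68. Most like Fcgr4 were Cd300ld, Ms4a7 and Cxcl16 (each 0.95). Fcgr3 was closest to Tyrobp and Slc11a1 (each 0.99), and Fcer1g to Tyrobp (0.99), Cd300c2 (0.98) and Ccl9 (0.97). Nearest to Fcgr2b were Ms4a6d (0.98), the macrophage marker gene Adgre1 (0.97) and Ccl9 (0.97). Fcgrt differed in its neighbours, which were Ehd2 (0.94), Cav1 (0.94) and Ptrf (0.93), all of them genes of caveolae.

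Reads that fit both Fcgr2b and Fcgr3, which are similar over their extracellular parts, may be counted for the wrong gene or dropped, so their separate levels are less certain. GENCODE M21 lists an antisense gene over Fcgr2b and another over Fcgrt, and how the counting treated strand is not given in the sources used here, so reads of these pairs cannot be told apart. Reads of 129X1 that differ from the reference could map less often, and the part of this in the strain differences was not tested.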

How the data were processed

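RNA of 36 ligated carotid arteries was sequenced from stranded mRNA libraries, per the labels' protocols. Reads were trimmed with Trimmomatic 0.36, aligned to GRCm38 with STAR 2.5.2b and counted per gene with featureCounts of Subread 1.5.0p3, per the submitters' processing notes. Neither the annotation nor the handling of strand in counting is given in the sources used here. The deposited values are raw counts for 49568 symbols, of which 47240 are in GENCODE M21.

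Here genes were filtered with filterByExpr (18628 kept) and TMM-scaled (factors 0.82 to 1.13). A single edgeR 4.0.16 quasi-likelihood fit (R 4.3.3) with 12 group means and 24 residual degrees of freedom gave 20 tested comparisons, Benjamini-Hochberg adjusted over all genes within each. A gene passed below 0.05. The biological coefficient of variation was 0.463. Log2 CPM used a prior count of 2, intervals are 95%, and SE was derived from F. Each library has its own label number, but nothing else states separate animals, so p-values measure the spread between these libraries.

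The genes and lists were chosen with earlier results of these data known, including strain differences. Named were all 6 genes, of each fixed list up to 4 passing genes with the smallest p, and per gene the 3 others with the highest r. A few genes this rule selects are not reported here. Alternatives were DESeq2 1.42.0 size factors or its Wald test, no filter, only the groups compared, 3 sets of list scores as covariates, leaving out libraries with Rag1 at or above 10 CPM, and leaving out each library. The test was checked on simulated counts. Every column of the table was used.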

Additional observations from a re-analysis of the deposited data

How the results depend on the processing

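No paired analysis was possible because the labels give no replicate number shared between groups. The strain differences of Fcgr1 and of Fcgrt stayed on their side of the threshold in every setting tried, and Fcgr1 kept its direction. The DESeq2 size factors, the Wald test, no filter and the fit of only the groups compared left 4 of the 6 genes called. With the macrophage score as covariate 2 were called, Fcgr2b being -0.049, Fcer1g -0.069 and Fcgr3 0.30. With T cell and B cell scores 2 were called, with Fcgr2b at -0.86 and Fcer1g at -0.76. With scores of muscle, fat and Schwann cells 1 was called, with Fcgr4 at -1.10, Fcgr2b at -0.37, Fcer1g at -0.20 and Fcgr3 at 0.11. Without libraries at or above the Rag1 level 2 of the 6 and 1290 genes in all were called, on fewer libraries, with Fcgr2b at -1.15 and Fcer1g at -1.10. For the other settings the cause was not tested.

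Leaving out 1 library at a time gave 4 to 5 of the 6 and 3302 to 5076 genes called, with Fcgr3 between -0.83 and -0.60 and Fcgrt between -0.026 and 0.13. No drug or regimen value passed in any setting for the 6 genes, and small values changed sign. For Val minus vehicle, the macrophage score gave Fcgr1 0.11, Fcgr3 0.095, Fcgr4 0.13, Fcgr2b 0.046 and Fcer1g 0.13, and leaving out the Rag1 libraries 0.14, 0.51, 0.47, 0.28 and 0.44. For Sac/val minus vehicle, the muscle, fat and Schwann cell scores gave Fcgr1 -0.14, Fcgr4 -0.020 and Fcgrt -0.039, and leaving out the Rag1 libraries Fcgr1 -0.19 and Fcgrt -0.12. For Sac/val minus Val, Fcgr1 was -0.11 with the macrophage score and -0.17 without the Rag1 libraries, and Fcgr4 -0.086 with the score. For regimen the macrophage score gave Fcgr1 -0.034, Fcgr3 -0.0070 and Fcgr2b -0.0072.

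With 1 library left out, Fcgr1 ran from -0.090 to 0.27 in Sac/val minus vehicle, from -0.15 to 0.24 in Val minus vehicle, from -0.095 to 0.17 in Sac/val minus Val and from -0.020 to 0.24 in regimen. In Val minus vehicle Fcgr3 ran from -0.19 to 0.039, Fcgr4 from -0.24 to 0.025, Fcgr2b from -0.18 to 0.068 and Fcer1g from -0.18 to 0.061, and Fcgrt ran from -0.017 to 0.087 in regimen. Over all genes the Wald test called 10 in Sac/val minus vehicle, 2 in Val minus vehicle, 17 in Sac/val minus Val and 21 in regimen. Regimen gave 7 genes with those muscle, fat and Schwann scores and 0 to 1 with a library left out, the 1 without B6 vehicle prophylactic replicate 2. Val minus vehicle gave 3 without the Rag1 libraries. With the longest transcript as length the activating to inhibitory ratio was 2.63 in B6 and 3.02 in 129X1. The fit of only the groups compared was not run for regimen, which uses all libraries. Groups of 3 and wide spread limit what was detectable. Over all genes tested the median half-width of the 95% interval was 0.38 for the strain comparison under drug and 0.31 for regimen, in log2 units. The strain intervals under drug were wider for Fcgr1 (-2.97 to -1.69) and Fcgr4 (-2.63 to -1.12) and narrower for Fcgrt (-0.26 to 0.37). For regimen they were likewise wider for Fcgr1 (-0.35 to 0.65) and Fcgr4 (-0.25 to 0.95).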
